A study of Mus musculus with 40 samples.

Results

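Carboxylesterases are serine hydrolases that split ester and amide bonds in drugs, toxicants and lipids. The 10 genes described here, Ces1c, Ces1d, Ces1e, Ces1f, Ces1g, Ces2a, Ces2c, Ces2e, Ces3a and Ces3b, were taken by gene symbol from the table of probe counts. They held 16 of the 30146 probes of the table and 10 of its 21448 gene symbols, and all 16 probes passed the filter on low counts that 17877 probes passed. The livers came from male and female Crl:CD1(ICR) mice, an outbred stock, that were given GenX, the ammonium salt of hexafluoropropylene oxide dimer acid, a perfluoroalkyl ether acid, in deionized water by oral gavage for 90 days. Doses were 0, 0.1, 0.5 and 5 mg/kg body weight per day, and control mice of each sex received the water alone. Each of the 8 groups had 5 mice, except females at 0.5 mg/kg, where 4 were used. RNA was scraped from a single section of formalin-fixed, paraffin-embedded liver per mouse and read by TempO-Seq, in which a pair of detector oligos is ligated on its target RNA and the ligated probe is sequenced. Each value is therefore a level of a probe in a whole section, in which fewer cells of a type and less RNA per cell cannot be told apart.

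Most mammalian carboxylesterases are held in the lumen of the endoplasmic reticulum of hepatocytes by a short signal at the end of the protein, whereas a few members are secreted. Ces1-type enzymes include the plasma carboxylesterase (Ces1c), triacylglycerol hydrolase (Ces1d), which mobilises stored lipid for lipoprotein secretion, and egasyn (Ces1e), which anchors β-glucuronidase in the endoplasmic reticulum. Ces2-type enzymes hydrolyse drug esters with bulky alcohol groups, and acylglycerols. In rodents the family is enlarged by tandem duplication, so that several near copies lie side by side.

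All 10 genes lie on chromosome 8 of the mouse genome (GRCm38, GENCODE M21), in 2 clusters. The Ces1 genes were annotated on the minus strand, from Ces1c at chr8:93099015-93131283 through Ces1d (chr8:93166068-93197838), Ces1e (chr8:93201218-93229619) and Ces1f (chr8:93256236-93279747) to Ces1g at chr8:93302369-93337308. The Ces2 and Ces3 genes were annotated on the plus strand, with Ces2a at chr8:104734003-104741634, Ces2c at chr8:104847068-104854483, Ces2e at chr8:104926260-104934672, Ces3a at chr8:105048601-105058413 and Ces3b at chr8:105083753-105093929. The last coding bases of the principal GENCODE transcripts show which members carry the retention signal, and they are printed for all 10 genes with the last 4 codons in capitals, followed by the stop codon.
Ces1c: gaacacACAGAACACAAAtga
Ces1d: agggaaCATGTTGAGCTCtga
Ces1e: acagaaCACACTGAGCTGtga
Ces1f: ccatacCACAATGAGCTGtga
Ces1g: agggaaCATGTTGAACTGtga
Ces2a: gacaagCATGCAGAGCTGtag
Ces2c: gacaagCACAGGGAGCTTtag
Ces2e: gagaggCACAAAGAGTTGtag
Ces3a: aaagttCCAGAGGAGCTCtga
Ces3b: aaagttCCAGAGGAGCTCtga
In 7 of the 10 genes these codons read histidine, any residue, glutamate and leucine, the known retention signal, and in Ces1c, Ces3a and Ces3b they did not.

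The members resemble each other in sequence, which bears on what a probe can tell apart. Coding sequences were 72.3 to 81.5% identical within Ces1 (10 pairs) and 82.4 to 83.6% within Ces2 (3 pairs). Ces3a and Ces3b were 95.3% identical, and members of different subfamilies were 54.6 to 59.2% identical (31 pairs). Of the 50-base windows of the Ces2c transcript, 42.2% were held without a mismatch by a transcript of another gene, among them Ces2a, Ces2b, Ces2e and Ces2g. The share was 30.9% for Ces3a and 26.1% for Ces3b, each with the other, 22.2% for Ces2a and 16.98% for Ces1c. It was 1.28 to 3.36% for Ces1d, Ces1e, Ces1f, Ces1g and Ces2e. Probe sequences were not used here, so whether a given probe lies in a shared stretch was not tested, and Ces2c, Ces3a, Ces3b, Ces2a and Ces1c are reported with that uncertainty.

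The 39 libraries used held 10341341 to 15562253 reads, and 1 female library at 0.5 mg/kg, with 6711981 reads, was left out because its total lay more than 2 SD below the mean. Reads of 4 Y-linked genes were present in 20 of 20 male libraries and in 0 of 20 female libraries. Of 6 hepatocyte markers 4 had a probe, and all 4 were detected in every group, whereas the summed level of 6 lymphocyte markers did not pass 26.5 CPM (counts of a probe divided by its library's scaled total and expressed per 1000000 reads) in any mouse. Ehhadh, a peroxisomal β-oxidation enzyme and a known target of the receptor PPARα, was 5.69 ± 0.20 (log2, SE) higher at 5 mg/kg in males (adjusted p = 5.66e-28, edgeR) and 4.96 ± 0.19 in females (adjusted p = 6.21e-26, edgeR).

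The first comparison asked which carboxylesterases differed between mice given 5 mg/kg and control mice of the same sex. In males, Ces2c rose and Ces1c, Ces2a, Ces3a and Ces3b fell. In females, Ces2c and Ces1f rose and Ces1c and Ces3b fell. With edgeR's quasi-likelihood test and an adjusted p below 0.10, 8 of the 16 probes were called in males, against 8.28% of all probes tested. Of these, 1 was higher and 7 were lower, against 4.83% and 3.45% of all probes. In females 5 of 16 probes were called, against 3.66% of all probes, with 2 higher and 3 lower, against 1.83% and 1.83%. The median log2 fold change of the 16 probes was -0.99 in males, beside 0.10 over all probes, and -0.24 in females, beside -0.01. All treated mice lay on one side of all control mice for 8 of 16 probes in males and 4 of 16 in females, against 8.48% and 3.35% of all probes. When the shallow library was kept, 5 probes in males (of Ces1c, Ces2a, Ces2c and Ces3b) were still called, against 4.84% of all probes. In females 2 were (of Ces1c and Ces2c), against 1.38%.

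**Figure D1:**
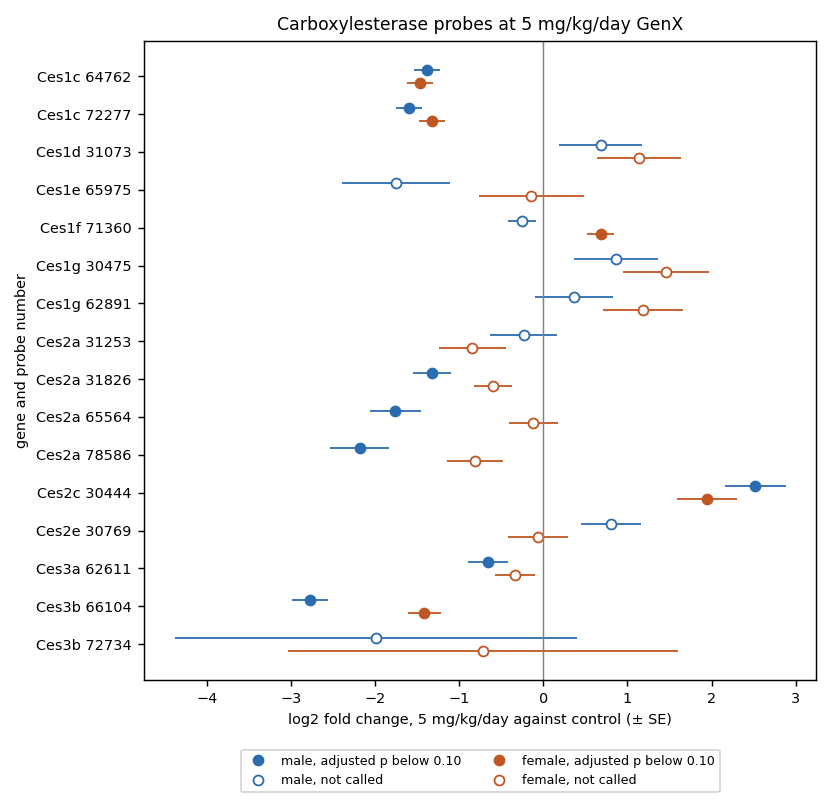
Log2 fold change (x axis, ± SE) of each carboxylesterase probe (y axis, gene and probe number) at 5 mg/kg per day against control mice, in males (blue) and females (orange), with filled points for an adjusted p below 0.10. Ces2c lay to the right in both sexes, at 2.52 and 1.95, and Ces1c and Ces3b probe 66104 lay to the left in both, while 3 of 4 Ces2a probes were called in males and none in females.

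Some markers of hepatocytes in both sexes, and of stellate cells and fibroblasts and of endothelial cells in males, also differed at 5 mg/kg. The summed level of the 4 hepatocyte markers ran from 32376 to 38807 CPM in male controls and from 19368 to 26251 CPM in males at 5 mg/kg. In females it ran from 24938 to 42722 CPM in controls and from 16983 to 26437 CPM at 5 mg/kg. Apoa1 and Fgb were called lower in both sexes, by 0.88 and 0.61 (log2) in males and by 0.71 and 0.69 in females. Alb and Ttr were not called in either sex (-0.07 and -0.16 in males, -0.22 and -0.10 in females). The lower sum was therefore not an equal fall of the 4 markers. The paper itself reported reduced Apoa1 with GenX. In males, 2 of 6 stellate cell and fibroblast markers, Col1a1 and Col3a1, were called higher. The others were not called, with Lrat and Dcn above 0 (1.65 and 0.15) and Reln and Des below 0 (-0.70 and -1.11). The summed level of the 6 ran from 63.7 to 129 CPM in male controls and from 157 to 194 CPM in males at 5 mg/kg. In females 0 of the 6 were called. Their sum ran from 103 to 154 CPM in female controls and from 95.5 to 151 CPM at 5 mg/kg. Of 6 endothelial markers 1, Clec4g, was called lower in males (by 0.61 on the log2 scale, adjusted p = 0.0688, edgeR), and the summed level of the 6 ran from 188 to 219 CPM in controls and from 122 to 241 CPM at 5 mg/kg. The part of these levels in the carboxylesterase differences was not tested.

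Ces2c, a Ces2-type enzyme known as an inducible acylcarnitine hydrolase of liver, was the member that rose in both sexes. Male control mice held 45.0, 23.6, 43.7, 50.6 and 35.4 CPM, and males at 5 mg/kg held 241, 352, 190, 170 and 184 CPM. Every male at 5 mg/kg lay above every male control. The group means were 39.7 ± 10.5 and 228 ± 74.5 CPM (SD, n = 5 each), a log2 fold change of 2.52 ± 0.36 or 5.74-fold (adjusted p = 9.22e-07, edgeR). Female controls held 14.2, 35.3, 19.1, 65.8 and 27.2 CPM, and females at 5 mg/kg held 148, 154, 123, 51.1 and 148 CPM. In females 4 of 5 treated mice lay above all controls, and mouse 454, at 51.1 CPM, lay below the highest control. The log2 fold change in females was 1.95 ± 0.35, or 3.86-fold (adjusted p = 0.000185, edgeR).

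In males Ces2c was also called higher at 0.5 mg/kg. Males at 0.5 mg/kg held 86.6, 93.1, 141, 59.2 and 107 CPM, all above the male controls, and the log2 fold change was 1.30 ± 0.35 (adjusted p = 0.0378, edgeR). Without control mouse 102 or treated mouse 303 the male call at 0.5 mg/kg was lost, with an adjusted p of up to 0.140. Females at 0.5 mg/kg held 38.5, 30.2, 24.2 and 18.8 CPM, within the range of their controls (log2 fold change -0.21 ± 0.37). The difference between the sexes at this dose was -1.51 ± 0.51 (female minus male log2 fold change) and was not called (adjusted p = 0.210, edgeR). From 0.5 to 5 mg/kg Ces2c rose by 2.16 ± 0.39 in females (adjusted p = 0.000391, edgeR) and by 1.22 ± 0.35 in males (adjusted p = 0.0464, edgeR), the latter call being lost without mouse 301, 302, 304 or 402, with an adjusted p of up to 0.243.

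**Figure D2:**
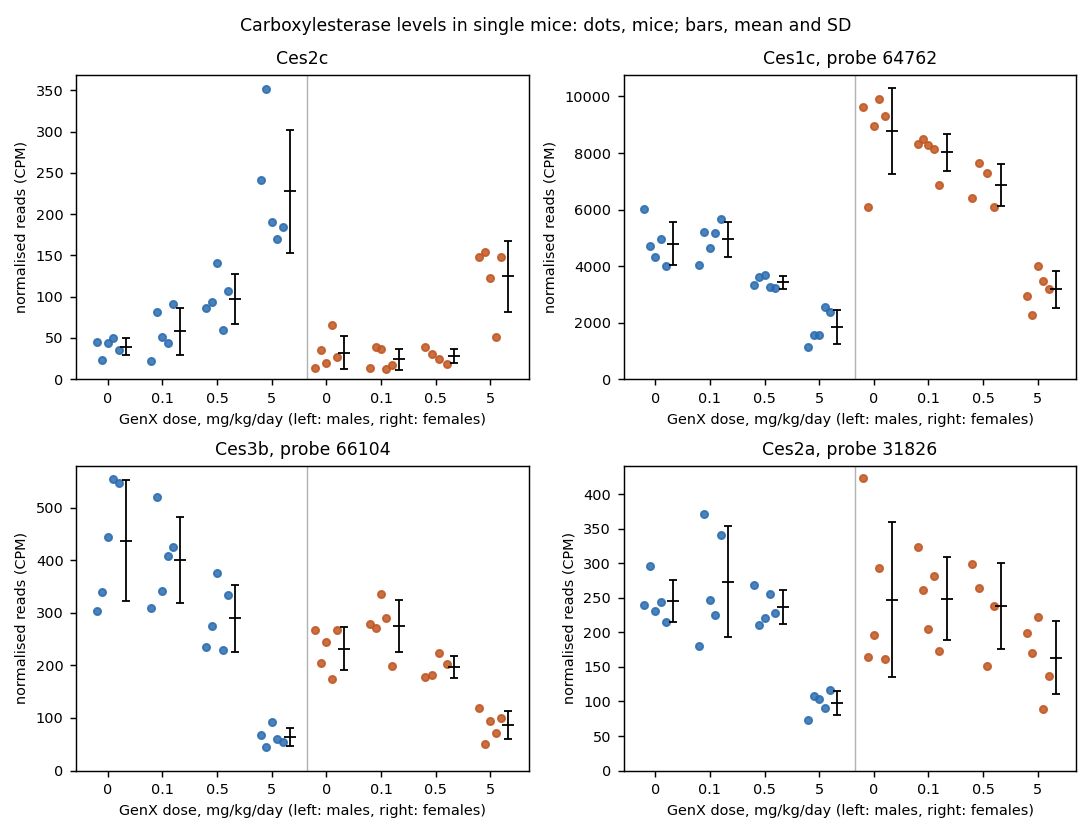
Level (y axis, CPM, linear from 0) of Ces2c, Ces1c, Ces3b and Ces2a by dose (x axis, mg/kg per day) in males (blue) and females (orange), with dots for single mice and bars for the mean and SD. Ces2c in males reached a mean of 97.4 CPM at 0.5 mg/kg and 228 CPM at 5 mg/kg, and Ces3b fell to a mean of 63.8 CPM in males and 87.0 CPM in females at 5 mg/kg.

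Ces1c, which encodes the carboxylesterase secreted into plasma and lacks the retention codons above, fell in both sexes on both of its probes. On the more counted probe, 64762, male controls held 6019, 4701, 4309, 4947 and 4008 CPM and males at 5 mg/kg held 1134, 1554, 1576, 2546 and 2393 CPM. Female controls held 9633, 6108, 8940, 9903 and 9316 CPM and females at 5 mg/kg held 2942, 2257, 4009, 3490 and 3201 CPM. The groups did not overlap in either sex. The level fell by 1.38 ± 0.15 on the log2 scale in males (adjusted p = 1.63e-09, edgeR) and by 1.47 ± 0.15 in females (adjusted p = 5.08e-10, edgeR). Probe 72277 differed by -1.60 ± 0.16 in males and -1.32 ± 0.16 in females (adjusted p = 5.43e-11 and 1.58e-08, edgeR), again with no overlap of the groups.

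The fall of Ces1c was smaller at 0.5 mg/kg. In males the probes differed by -0.49 ± 0.15 and -0.50 ± 0.15 from controls and were called at adjusted p = 0.0929 and 0.0950 (edgeR). Leaving out any 1 of 9 of the 10 mice ended the call of probe 64762, and any 1 of 8 that of probe 72277, with adjusted p up to 0.280 and 0.278. In females the differences were -0.35 ± 0.16 and -0.27 ± 0.16 and neither was called (adjusted p = 0.485 and 0.628, edgeR). The step from 0.5 to 5 mg/kg was -0.89 ± 0.15 and -1.10 ± 0.15 in males and -1.11 ± 0.16 and -1.05 ± 0.16 in females, all called, with adjusted p between 2.11e-06 and 7.18e-05 (edgeR). Both probes followed each other over the 39 libraries (Pearson r of log2 CPM 0.98, given as a description of 2 probes in the same libraries).

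Ces3b and Ces3a encode near-identical liver esterases without the retention codons, and Ces3b showed the largest fall of the 16 probes in males. On Ces3b probe 66104 male controls held 304, 339, 444, 554 and 546 CPM, and males at 5 mg/kg held 67.2, 45.2, 92.0, 60.5 and 54.4 CPM. Female controls held 267, 205, 243, 175 and 268 CPM, and females at 5 mg/kg held 118, 50.2, 93.9, 71.5 and 101 CPM. The groups were separate in both sexes, and the fall was larger in males. The level fell by 2.78 ± 0.21 on the log2 scale in males (6.85-fold, adjusted p = 1.38e-14, edgeR) and by 1.41 ± 0.20 in females (2.66-fold, adjusted p = 1.60e-06, edgeR). The second Ces3b probe, 72734, had no read in 20 of the 39 libraries and at most 85 reads in any, and gives no usable value.

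At 0.5 mg/kg Ces3b differed by -0.59 ± 0.20 in males (adjusted p = 0.143, edgeR) and by -0.24 ± 0.21 in females and was not called. The male call at this dose turned on the setting: with DESeq2's size factors in edgeR the adjusted p was 0.0876, with no filter on low counts 0.0702 and without mouse 101 0.0745 (edgeR), with log2 fold changes from -0.70 to -0.59 over these fits. It was also called without mouse 303 and by DESeq2 (adjusted p = 0.0316). The step from 0.5 to 5 mg/kg was -2.18 ± 0.21 in males and -1.18 ± 0.21 in females (adjusted p = 8.67e-11 and 0.000333, edgeR). Ces3a held 179, 98.6, 174, 158 and 190 CPM in male controls and 75.8, 72.6, 140, 106 and 111 CPM in males at 5 mg/kg. These ranges overlapped, and the log2 fold change of -0.66 ± 0.24 was called at adjusted p = 0.0909 (edgeR). Leaving out any 1 of 8 of the 10 mice ended that call, with an adjusted p of up to 0.213. In females the Ces3a difference of -0.34 ± 0.24 was not called (adjusted p = 0.638, edgeR).

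Ces2a, a Ces2-type hydrolase of drugs and acylglycerols, was read by 4 probes, and its fall was called in males. On the most counted probe, 31826, male controls held 240, 296, 231, 244 and 216 CPM and males at 5 mg/kg held 72.6, 108, 104, 90.0 and 116 CPM. All males at 5 mg/kg lay below all male controls. The level fell by 1.32 ± 0.23 on the log2 scale (adjusted p = 3.25e-05, edgeR). Probes 65564 and 78586 fell by 1.76 ± 0.30 and 2.18 ± 0.35 (adjusted p = 2.93e-05 and 7.41e-06, edgeR), also without overlap. The least counted probe, 31253, with means of 13.01 ± 4.65 and 11.1 ± 4.86 CPM (SD, n = 5 each), was not called (-0.23 ± 0.39, adjusted p = 0.990, edgeR).

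In females no Ces2a probe was called, all 4 estimates were below 0, and the call turned on the setting. Probe 31826 held 424, 164, 196, 293 and 162 CPM in female controls and 199, 170, 222, 89.5 and 137 CPM at 5 mg/kg, and the groups overlapped (log2 fold change -0.60 ± 0.22, adjusted p = 0.202, edgeR). Its 95% interval, not adjusted for the number of probes, ran from -1.04 to -0.16. Probe 31826 was called lower in females with no filter on low counts (adjusted p = 0.0701, edgeR) and without mouse 453 (0.0962), and probe 78586 without mouse 453 (0.0717). Probe 78586 differed by -0.81 ± 0.34, probe 31253 by -0.84 ± 0.40 and probe 65564 by -0.12 ± 0.29. At 0.5 mg/kg probe 78586 was lower in males, at 23.4, 21.8, 22.5, 22.7 and 22.9 CPM beside 40.2, 73.0, 99.7, 50.1 and 28.3 CPM in controls (-1.36 ± 0.34, adjusted p = 0.0190, edgeR). Without control mouse 103 that adjusted p was 0.137. The other 3 Ces2a probes were not called at that dose, with log2 fold changes of -0.36 to 0.51.

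Because the probes of a gene gave unequal fold changes, the log2 ratio of each to the most counted probe of its gene was compared within mice at 5 mg/kg against control, for Ces1c, Ces1g and Ces2a. This test was added after the values had been seen. The largest difference was that of Ces2a probe 31253 in males, whose log2 ratio to probe 31826 was -4.28 ± 0.59 in controls and -3.23 ± 0.68 at 5 mg/kg (SD, n = 5 each). The smallest p was that of Ces2a probe 78586 in males, where the ratio moved by -0.80 (exact permutation p = 0.0476, two-sided). Over the 10 ratios tested the lowest Benjamini-Hochberg adjusted exact permutation p was 0.218, so that a difference between probes of 1 gene was not shown. With 5 against 5 mice the exact permutation p cannot fall below 0.00794 before adjustment, so real differences between probes could be missed. Over the 39 libraries the Ces2a probes correlated pairwise with Pearson r between 0.24 and 0.75 and the Ces1g pair with 0.85.

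The stretch of 250 bases before the annotated start is printed for the 4 genes called at 5 mg/kg in males that had a sequence entry. Of these, Ces2c rose and Ces1c, Ces3b and Ces2a fell. The sequences are from RefSeq (GRCm38.p6), which held an entry for 7 of the 10 members and none for Ces1d, Ces1f and Ces3a. Capitals mark AGGTCA, the core motif of binding sites of nuclear receptors such as PPARα, CCAAT, and TATAAA, each on either strand, and AGGTCA overlapped none of the others.
Ces2c, chr8:104846818-104847067, plus strand: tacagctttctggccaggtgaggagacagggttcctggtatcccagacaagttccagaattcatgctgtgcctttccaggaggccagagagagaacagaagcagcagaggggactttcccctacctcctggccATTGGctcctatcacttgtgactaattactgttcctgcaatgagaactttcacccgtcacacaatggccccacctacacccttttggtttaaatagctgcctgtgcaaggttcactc
Ces1c, chr8:93131284-93131533, minus strand: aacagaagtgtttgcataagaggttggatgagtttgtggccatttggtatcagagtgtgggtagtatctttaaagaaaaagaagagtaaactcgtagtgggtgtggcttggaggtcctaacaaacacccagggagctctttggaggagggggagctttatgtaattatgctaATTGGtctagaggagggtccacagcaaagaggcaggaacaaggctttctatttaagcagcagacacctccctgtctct
Ces3b, chr8:105083505-105083754, plus strand: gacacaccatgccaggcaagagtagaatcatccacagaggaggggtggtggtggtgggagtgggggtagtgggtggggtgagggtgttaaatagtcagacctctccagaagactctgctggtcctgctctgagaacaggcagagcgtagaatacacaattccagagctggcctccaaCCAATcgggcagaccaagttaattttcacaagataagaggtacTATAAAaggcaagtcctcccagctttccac
Ces2a, chr8:104733753-104734002, plus strand: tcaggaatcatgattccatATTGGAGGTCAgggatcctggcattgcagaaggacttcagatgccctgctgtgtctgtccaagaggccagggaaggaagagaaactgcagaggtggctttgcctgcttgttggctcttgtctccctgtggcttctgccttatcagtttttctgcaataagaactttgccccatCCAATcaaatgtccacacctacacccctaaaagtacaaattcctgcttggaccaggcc
AGGTCA was found in 1 of the 7 member windows, that of Ces2a, and in 14.02% of 32851 windows of the same length. CCAAT was found in 5 of 7 (33.8% of all windows) and TATAAA in 2 of 7, those of Ces1g and Ces3b (12.4% of all windows). A match describes the letters only.

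Ces1f, a relative of triacylglycerol hydrolase in the endoplasmic reticulum, was called higher in females at 5 mg/kg and was not called in males. Female controls held 295, 191, 177, 262 and 239 CPM and females at 5 mg/kg held 330, 332, 394, 368 and 443 CPM. Every treated female lay above every female control, with a log2 fold change of 0.68 ± 0.16 (adjusted p = 0.00842, edgeR). Male controls held 326, 420, 363, 562 and 413 CPM and males at 5 mg/kg held 412, 362, 297, 314 and 360 CPM. The male ranges overlapped (-0.26 ± 0.16, adjusted p = 0.426, edgeR). In 1 setting described last the male difference was called lower (-0.34, adjusted p = 0.0980, edgeR), where 35.1% of all probes were called.

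Ces1d, Ces1e, Ces1g and Ces2e were not called in any comparison with control mice in the main fit, and their values spread widely among mice of 1 group. Ces1e (egasyn) held 15.9, 17.98, 25.05, 12.1 and 11.1 CPM in male controls and 1.76, 6.53, 6.10, 4.47 and 5.49 CPM in males at 5 mg/kg. These groups did not overlap in CPM, and the log2 fold change of -1.75 ± 0.64 fell just outside the threshold (adjusted p = 0.106, edgeR). The values rest on few reads, 123 to 321 per male control and 26 to 110 per male at 5 mg/kg, which limits their precision. It was called with DESeq2's size factors in edgeR (adjusted p = 0.0876) and with only both compared groups in the fit (adjusted p = 0.0303, edgeR). DESeq2 also called it (adjusted p = 0.0192). On counts simulated with edgeR's own estimates of the spread DESeq2 made many more false calls than edgeR, which cannot rank the methods on these data. In females Ces1e differed by -0.14 ± 0.63.

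Ces1d (triacylglycerol hydrolase) held 32.2, 0, 46.7, 30.6 and 21.9 CPM in male controls, with no read in mouse 102, and 24.5 to 50.6 CPM in males at 5 mg/kg. The log2 fold change was 0.68 ± 0.50 in males and 1.13 ± 0.50 in females (adjusted p = 0.550 and 0.258, edgeR). Ces1g, a Ces1-type enzyme linked to hepatic lipid handling, ran from 12.4 to 90.0 CPM within male controls and from 2.15 to 33.1 CPM within female controls on probe 62891. Its female log2 fold changes were 1.23 ± 0.47, 1.17 ± 0.49 and 1.18 ± 0.47 at 0.1, 0.5 and 5 mg/kg on that probe and 1.17 ± 0.51, 1.32 ± 0.53 and 1.46 ± 0.51 on probe 30475, with adjusted p between 0.147 and 0.485 (edgeR). The 3 female comparisons share their control mice. At 5 mg/kg both Ces1g probes were called higher in females with no filter on low counts (adjusted p = 0.0130 for 30475 and 0.0461 for 62891, edgeR) or without mouse 153 (0.0799 for 62891), and 30475 also without mouse 455 (0.0642). Ces2e held 15.3 to 125 CPM in male controls and 102 to 147 CPM in males at 5 mg/kg (0.80 ± 0.36, adjusted p = 0.190, edgeR), was called with no filter (0.0614) or without mouse 103 (0.0715), and differed by -0.06 ± 0.36 in females.

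**Figure D3:**
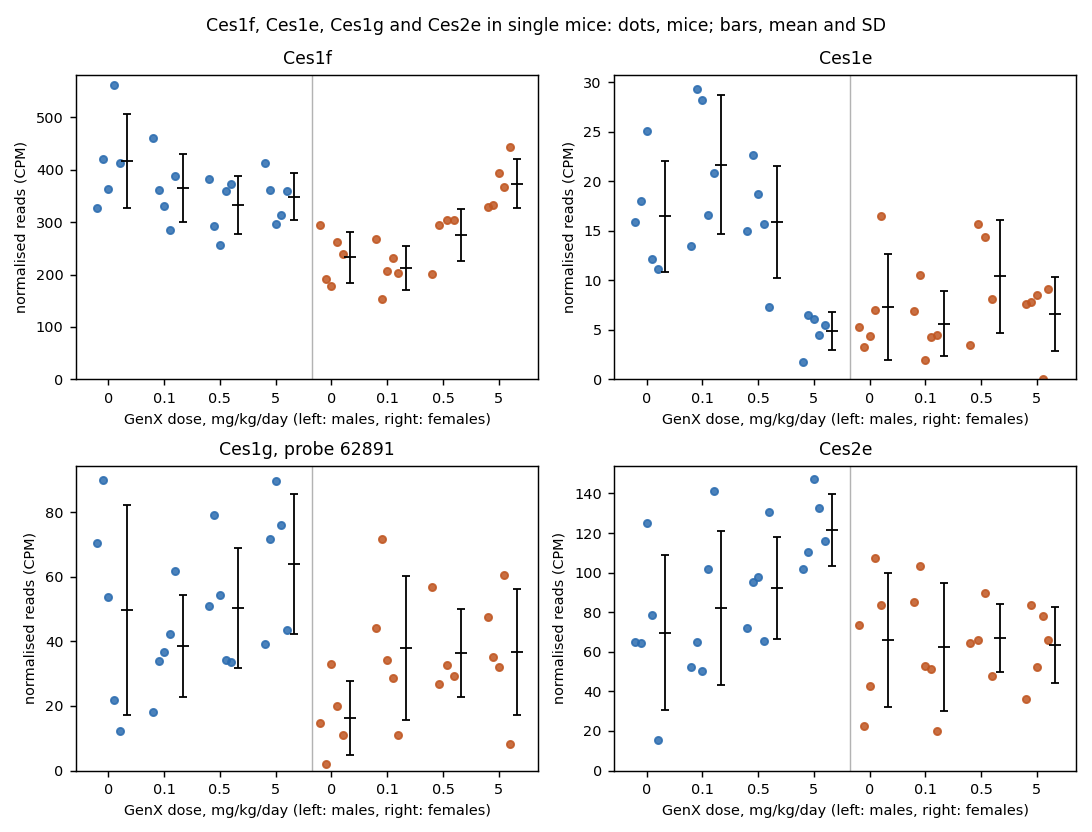
Level (y axis, CPM, linear from 0) of Ces1f, Ces1e, Ces1g probe 62891 and Ces2e by dose (x axis, mg/kg per day) in males (blue) and females (orange), with dots for single mice and bars for the mean and SD. Ces1f in females at 5 mg/kg (330 to 443 CPM) lay above all female controls, whereas mice of 1 control group differed several-fold in Ces1g and Ces2e.

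The second question was at which dose the carboxylesterases first differed from control mice. At 0.1 mg/kg 0 of 16 probes were called in either sex, against 0.0336% of all probes in males and 0% in females. Without adjustment 0 male and 3 female probes had p below 0.05 (edgeR), and DESeq2 called 0 in each sex. At 0.5 mg/kg 4 of 16 were called in males, against 2.38% of all probes, namely both Ces1c probes, Ces2a probe 78586 and Ces2c. In females 0 of 16 were called at 0.5 mg/kg, against 0.213% of all probes, with 3 at an unadjusted p below 0.05 (edgeR) and 0 called by DESeq2. From 0.5 to 5 mg/kg 7 of 16 were called in males (2.64% of all probes) and 4 of 16 in females (1.23%).

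The male step included Ces3a, which was 200 ± 39.5 CPM at 0.5 mg/kg and 101 ± 27.8 CPM at 5 mg/kg (SD, n = 5 each), a log2 difference of -0.99 ± 0.24 (adjusted p = 0.0105, edgeR). The Ces3a mean at 0.5 mg/kg was above the control mean of 160 ± 36.2 CPM (n = 5), and that difference was not called (0.33 ± 0.23). Ces2a probes 31826 and 65564 also fell in this step, by 1.27 ± 0.23 and 1.40 ± 0.30 (adjusted p = 0.000211 and 0.00296, edgeR).

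**Figure D4:**
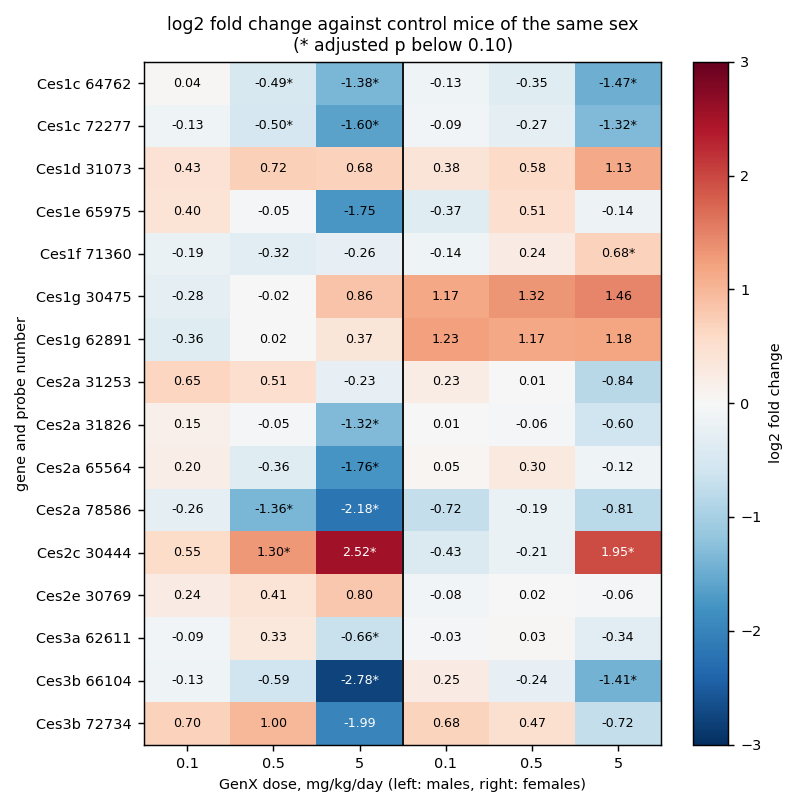
Log2 fold change against control mice of the same sex for each carboxylesterase probe (rows) at 0.1, 0.5 and 5 mg/kg per day (columns) in males (left) and females (right), with an asterisk at an adjusted p below 0.10. No value at 0.1 mg/kg is marked in either sex, 4 are marked at 0.5 mg/kg in males and none in females, and 8 and 5 are marked at 5 mg/kg.

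Carboxylesterase levels also differed between the sexes without GenX. Between female and male controls 6 of 16 probes were called, against 3.49% of all probes. Ces1c was higher in females, at 8780 ± 1536 beside 4797 ± 772 CPM on probe 64762 (SD, n = 5 each; log2 difference 0.87 ± 0.15, adjusted p = 0.000109, edgeR). Ces1f was lower in females, at 233 ± 49.1 beside 417 ± 89.5 CPM (-0.84 ± 0.16, adjusted p = 0.000787, edgeR). Ces3a was lower in females, at 78.4 ± 17.1 beside 160 ± 36.2 CPM (-1.03 ± 0.24, adjusted p = 0.00599, edgeR). Ces3b probe 66104 was lower in females, at 232 ± 40.8 beside 437 ± 115 CPM (-0.92 ± 0.20, adjusted p = 0.00306, edgeR). Ces1g probe 62891 was lower in females (-1.62 ± 0.48, adjusted p = 0.0552, edgeR), a call that ended without mouse 101, 102, 151, 152 or 155, with an adjusted p of up to 0.222. It also ended with only both control groups in the fit (adjusted p = 0.203, edgeR). Ces1g probe 30475 was not called (-1.20 ± 0.51, adjusted p = 0.245, edgeR), but was with no filter on low counts (0.0785). Of the genes that changed at 5 mg/kg, Ces2c (-0.30 ± 0.34) and Ces2a were not called between control mice of the 2 sexes. The Ces2a probes differed by 0.66 ± 0.39 (31253), 0.01 ± 0.22 (31826), -0.51 ± 0.29 (65564) and -0.87 ± 0.33 (78586, adjusted p = 0.205, edgeR).

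The third question was whether the response to GenX itself differed between the sexes, tested as the female minus the male log2 fold change. At 0.1 and 0.5 mg/kg 0 of 16 probes were called, against 0% and 0.274% of all probes, with 2 and 3 probes at an unadjusted p below 0.05 (edgeR) and 0 and 0 called by DESeq2. At 5 mg/kg 3 of 16 were called, against 1.04% of all probes, and DESeq2 called 4, against 3.09%. The median difference of the 16 probes was 0.66, beside -0.16 over all probes. Ces3b probe 66104 fell less in females, by 1.36 ± 0.28 (adjusted p = 0.00606, edgeR), so that its means of 437 and 232 CPM in male and female controls stood at 63.8 ± 17.7 and 87.0 ± 26.6 CPM at 5 mg/kg.

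Ces1f had opposite estimates in the sexes, and the difference of 0.94 ± 0.23 was called (adjusted p = 0.0376, edgeR). Its means, 417 and 233 CPM in male and female controls, were 349 ± 45.5 and 373 ± 47.2 CPM at 5 mg/kg. Without male control mouse 104 its adjusted p was 0.107. Ces2a probe 65564 differed by 1.64 ± 0.42 (adjusted p = 0.0452, edgeR) and lost the call without male control mouse 103 (adjusted p = 0.102). Of the other Ces2a probes, 78586 differed by 1.37 ± 0.47 (adjusted p = 0.137, edgeR), 31826 by 0.72 ± 0.32 and 31253 by -0.61 ± 0.56. DESeq2 called probe 78586 (adjusted p = 0.0677). For Ces1c the difference was -0.08 ± 0.21 and 0.28 ± 0.22 on its 2 probes, with 95% intervals from -0.50 to 0.33 and from -0.15 to 0.70. For Ces2c it was -0.57 ± 0.49, with an interval from -1.52 to 0.38.

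Other esterases and lipid hydrolases gave the setting of these values. Of 10 further carboxylesterase genes, 6 had a probe that passed the filter (8 of 14 probes), most of them near 0, so that no median is given. Only Ces1b in males at 5 mg/kg was called among them in the 6 comparisons with control mice, at 15.2 ± 12.4 CPM in controls and 2.46 ± 1.86 CPM at 5 mg/kg (SD, n = 5 each; -2.62 ± 0.92, adjusted p = 0.0821, edgeR). Of 18 genes of other esterases, lipases and epoxide hydrolases, 6 had a probe called higher and 1 a probe called lower in males at 5 mg/kg, and 11 had none. In females 4 had a probe called higher, 0 lower, and 14 had none. These genes hold 33 tested probes, of which 12 were called higher and 1 lower in males, against 4.83% and 3.45% of all probes, and 9 higher and 0 lower in females, against 1.83% each. The median log2 fold change of the 33 probes was 0.64 in males and 0.32 in females, beside 0.10 and -0.01 over all probes.

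The genes that rose in both sexes were Ephx1 and Ephx2 (microsomal and soluble epoxide hydrolase), Mgll (monoacylglycerol lipase) and Abhd6, another monoacylglycerol hydrolase. Ephx2 probe 30975 rose from 705 ± 61.5 to 2316 ± 184 CPM in females and from 1452 ± 152 to 2406 ± 153 CPM in males (SD, n = 5 each). Mgll probe 75873 rose from 28.1 ± 7.54 to 91.8 ± 21.4 CPM in females and from 21.7 ± 10.6 to 87.0 ± 15.5 CPM in males. Abhd6 probe 81892 rose from 30.6 ± 9.05 to 134 ± 32.5 CPM in females and from 40.6 ± 10.9 to 124 ± 21.6 CPM in males. Nceh1, a neutral cholesteryl ester hydrolase, and Esd, esterase D, were called higher in males (Nceh1 probe 69154 by 1.86 ± 0.25 and Esd probe 67391 by 0.49 ± 0.13). Esd probe 78437 was not called in males (0.64 ± 0.26, adjusted p = 0.156, edgeR). Lipc, hepatic lipase, was called lower in males on probe 67465 (-1.27 ± 0.19) and not on probe 30307 (0.08 ± 0.17). The β-glucuronidase gene Gusb, whose product egasyn anchors, was not called in either sex.

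The genes outside the family whose levels ran most like those of Ces2c and Ces3b are given as a description over the 39 libraries, which share the dose groups. For Ces2c they were Gpx4 (Pearson r of log2 CPM 0.88), Hsd17b11 (0.85) and Ten1 (0.85). Hsd17b11, a lipid droplet dehydrogenase, went from 183 to 1569 CPM between the means of male controls and males at 5 mg/kg, and from 137 to 934 CPM in females. For Ces3b probe 66104 they were Serpina1e (0.91), Serpina1b (0.89) and Serpina1d (0.89), which are near copies of a protease inhibitor secreted by hepatocytes, so that their probes may not tell them apart. Serpina1e went from 9626 to 2611 CPM in males and from 9330 to 2468 CPM in females.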

How the data were processed

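Counts of reads per probe were deposited by the authors as 1 table for 40 libraries. The submitters' processing notes name bcl2fastq (version 2.17.1.14), Bowtie and the mm10 build. All columns were mapped to a sample by the animal number. Reads were counted without molecular identifiers, so 1 molecule can give many reads, and 10341341 to 15562253 reads per library overstate the precision of low values.

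From these counts, the female library 355 was left out (total more than 2 SD below the mean), probes were filtered by edgeR's filterByExpr, libraries were scaled by TMM, and 1 quasi-likelihood model with 8 groups was fitted to all 39 libraries (R 4.3.3, edgeR 4.0.16). Tests of 12 comparisons were adjusted by Benjamini-Hochberg over all 17877 probes, and an adjusted p below 0.10 was called. SE is the log2 fold change divided by the square root of F, and 95% intervals are 1.96 SE. CPM are scaled by TMM. Fits were tested on simulated counts drawn with edgeR's own estimates of the spread, where DESeq2 made many more false calls than edgeR. Such counts follow edgeR's model, so they cannot tell which method is better on the real counts. Levels were not compared between genes, since probes differ in efficiency. DESeq2 1.42.0 and the other settings are described last.

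Named genes were all 10 members with all probes, genes of the 2 further esterase lists called in any comparison with controls, and, for the called members with the highest and lowest log2 fold change in males at 5 mg/kg, the 3 genes outside the family with the highest correlation. The members, lists and markers were chosen with earlier results of these data known. Serpina1c and Tf of the hepatocyte list had no probe. Coding sequences and positions were read from GENCODE M21 (GRCm38, the build of mm10) with Biopython 1.88. Replicates were separate animals. The highest correlation of log2(reads + 1) between 2 libraries was 0.90, and no pair had identical counts.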

Additional observations from a re-analysis of the deposited data

Results flagged for a closer look

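A mouse far from the others of its group (Dixon's gap criterion, 95%) was found in 10 of 128 sets of probe values, and chance alone gives about 1 in 20 such sets. For Ces1c probe 64762, female control mouse 152 held 6108 CPM beside 8940 to 9903 CPM in the others, and female mouse 255 at 0.1 mg/kg held 6884 CPM beside 8146 to 8485 CPM. Male mouse 401 at 5 mg/kg held 24.5 CPM of Ces1d beside 44.4 to 50.6 CPM. For Ces1e, female control mouse 155 held 16.5 CPM beside 3.26 to 6.99 CPM, and female mouse 454 at 5 mg/kg held 0 CPM beside 7.60 to 9.14 CPM. Female mouse 351 at 0.5 mg/kg held 201 CPM of Ces1f beside 295 to 304 CPM and, on Ces1g probe 30475, 60.5 CPM beside 22.5 to 27.6 CPM. Mouse 454 also held 20.8 CPM on Ces2a probe 65564 beside 33.96 to 39.2 CPM. On the barely counted Ces3b probe 72734, male mouse 405 and female mouse 453 at 5 mg/kg held 2.04 and 3.03 CPM, and the other mice of their groups held 0.

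The response at 5 mg/kg differed between the sexes in 3 probes by the test of the difference itself (female minus male log2 fold change, edgeR): Ces1f by 0.94, Ces2a probe 65564 by 1.64 and Ces3b probe 66104 by 1.36.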

How the results depend on the processing

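No called log2 fold change turned its direction under any setting. Keeping the shallow library 355, in which 11 of 16 probes had no read, left 0 called probes in males at 0.5 mg/kg (4 without it), 5 in males at 5 mg/kg (8), 2 in females at 5 mg/kg (5), 2 and 1 in the male and female steps from 0.5 to 5 mg/kg (7 and 4), 0 for the sex difference at 5 mg/kg (3) and 1 between control mice (6). With the probes of a gene summed, 2 genes were called in males at 0.5 mg/kg, against 2.96% of all genes tested. With no filter on low counts, 8 probes were called in females at 5 mg/kg, including both of Ces1g and Ces2a probe 31826, against 3.05% of all probes. For the sex difference at 0.5 mg/kg 1, Ces2c, was called (0 in the main test), against 0.707%. The first peak of a library's counts lay at 36 to 41 reads in male controls and at 21 to 28.5 reads in males at 5 mg/kg. In females it lay at 24 to 44.5 reads in controls and at 32.5 to 41.5 reads at 5 mg/kg. Dividing each library's counts by the reads at its first count peak (21 to 44.5 reads, chosen after seeing the data) left 13 carboxylesterase probes among 5322 tested. In females at 5 mg/kg 8 were called, among them Ces1d (adjusted p = 0.0410, edgeR), against 17.9% of all probes. It also called Ces3b probe 66104 in males at 0.5 mg/kg (0.0147), against 14.1%, and Ces2a probe 78586 between control mice (0.0346), against 16.5%. Ces1f was called lower in males at 5 mg/kg in this setting (0.0980), against 35.1%. For the sex difference at 5 mg/kg it called Ces2a probe 78586 (0.0698), against 7.52%. The causes were not tested. Over all probes DESeq2 called 988 in females at 5 mg/kg (655 in the main test) and 865 in males at 0.5 mg/kg (425). All other counts of carboxylesterase probes stayed within 1.5 times those given. Leaving out 1 mouse in turn gave 1 to 4 called probes in males at 0.5 mg/kg, with 1 left without control mouse 102 or 103, 7 to 8 in males at 5 mg/kg, 5 to 7 in females at 5 mg/kg and 2 to 3 for the sex difference at 5 mg/kg. No paired analysis was possible because each animal number belongs to 1 group. Ces1d, Ces1e, both Ces1g probes, Ces2a probes 31253, 65564 and 78586 and Ces3b probe 72734 rest on few reads (medians of 385, 109, 401 and 496, 228, 489 and 310, and 0), which limits their precision.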
